A study of Homo sapiens with 12 samples.

Results

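The genes described here make up the replication licensing and S phase set of a count table from U2OS cells. The set is MCM2, MCM3, MCM4, MCM5, MCM6 and MCM7, PCNA, RRM2, TYMS, and ENOSF1, which lies opposite to TYMS. It was taken by name, and its 10 genes are 10 of the 58684 rows of the table. All 10 passed the filter on low counts, which kept 12460 genes.

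U2OS is an osteosarcoma cell line, here obtained from ATCC, and all 12 libraries come from it. There were 3 libraries in each of 4 groups. These were Cap IP of cells with eIF4E-Flag, Cap IP of cells with the vector, input of cells with eIF4E-Flag and input of cells with the vector. Cap IP stands for RNA pulled down by its cap, and input for the RNA before that step. eIF4E is the protein that binds the 5′ cap of mRNAs for their export and translation, and the comparisons ask whether more of it goes with a different share of capped RNA. The sources used here do not say how the transfections and stable lines were made, how many clones they hold or how the pull-down was done. Nothing in the labels says that the 3 libraries of a group are separate cultures, so the p-values cover no more than the spread among them, which may be technical.

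On GRCh38 (GENCODE release 44), MCM2 is on chromosome 3 at 127598410 to 127622436, MCM3 on chromosome 6 at 52264014 to 52284881, and MCM4 on chromosome 8 at 47960185 to 47978160. MCM5 is on chromosome 22 at 35400134 to 35425431, MCM6 on chromosome 2 at 135839626 to 135876443, and MCM7 on chromosome 7 at 100092233 to 100101940. PCNA is on chromosome 20 at 5114953 to 5126626, and RRM2 on chromosome 2 at 10120698 to 10211725. TYMS is on chromosome 18 at 657653 to 673578 on the plus strand. ENOSF1 is on chromosome 18 at 670318 to 712662 on the minus strand.

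MCM2 to MCM7 form the ring-shaped helicase that unwinds DNA at replication forks. The ring is loaded onto origins in G1 by the origin recognition complex with CDC6 and CDT1, which is called licensing, and it is switched on in S phase together with CDC45 and the GINS complex. PCNA is the sliding clamp that holds DNA polymerases on the template, RRM2 is the small subunit of the enzyme that makes deoxynucleotides, and TYMS is the enzyme that makes thymidylate. Most of these genes are known targets of E2F transcription factors at entry into S phase, and replication genes are highly transcribed in dividing tumour lines such as U2OS. ENOSF1 encodes an enzyme of sugar acid metabolism, and its 3′ end overlaps that of TYMS on the other strand.

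The start regions of several of these genes share a sequence feature. The genes were taken by name, but most are known E2F targets, so E2F words at their starts are no independent result. A window of 250 bases before the start was searched in the RefSeq promoters of GRCh38.p14 for the E2F words TTTCCCGC, TTTGGCGC, TTTCGCGC and TTTGCCGC on both strands. Of all 35116 windows, 2.79% hold such a word. Of the 8 genes of the set that have a window, 5 hold one, namely MCM3, MCM6, MCM7, PCNA and TYMS. MCM7 and PCNA have further windows for other starts, and in all 5 of 12 windows hold a word. The windows of MCM2, RRM2 and ENOSF1 hold none of these letters, and MCM4 and MCM5 were not searched. The word CCAAT, bound by NF-Y, is in windows of 6 of the 8 genes and in 32.0% of all windows. Stretches of 60 bases around the E2F words nearest to the start are shown for the 5 genes that hold one. They run 5′ to 3′ on the strand of the gene, with the words in capitals. A word in capitals is a match of letters and not a measured binding site. The MCM3 stretch is at chr6:52284883-52284942 on the minus strand, that of MCM6 at chr2:135876496-135876555 on the minus strand and that of MCM7 at chr7:100101398-100101457 on the minus strand. The PCNA stretch is at chr20:5126648-5126707 on the minus strand, and that of TYMS at chr18:657588-657647 on the plus strand.
MCM3: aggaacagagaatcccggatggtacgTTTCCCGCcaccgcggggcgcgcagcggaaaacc
MCM6: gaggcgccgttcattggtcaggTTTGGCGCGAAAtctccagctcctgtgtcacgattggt
MCM7: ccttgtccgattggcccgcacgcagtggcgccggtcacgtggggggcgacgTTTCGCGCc
PCNA: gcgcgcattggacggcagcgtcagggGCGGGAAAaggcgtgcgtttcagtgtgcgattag
TYMS: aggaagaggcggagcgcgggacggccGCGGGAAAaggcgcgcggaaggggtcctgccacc
In MCM6 the capitals hold overlapping words, read on both strands. In PCNA and TYMS the word TTTCCCGC lies on the other strand.

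Libraries held 1206321 to 1813486 counts, so that 3 counts stand for 1.19 to 3.15 CPM, and such floors cover counting error only. Libraries of a group correlated at 0.893 to 0.942 across genes on the log2 scale. EIF4E had 39, 27 and 23 counts in eIF4E input and 15, 9 and 15 counts in vector input, without overlap. Its log2 difference in input was 0.98 ± 0.36 and was not called (edgeR adjusted p = 0.231). Of the 8 mesenchymal and osteoblast markers, VIM, COL1A1, SPARC and FN1 were at 16.8 CPM or above in every library. RUNX2 and ALPL were low, with minima of 2.05 and 0.395 CPM, COL1A2 had 2 counts over all libraries and TWIST1 had none. The summed markers of that list lay at 1050 to 1278 CPM in eIF4E Cap IP, 1111 to 2489 CPM in vector Cap IP, 1717 to 2079.9 CPM in eIF4E input and 2018 to 2799 CPM in vector input. The 6 blood cell markers summed to between 1.93 and 8.92 CPM in the 12 libraries, with HBB and CD14 at 0. Of the 5 epithelial markers, KRT8, KRT18 and CDH1 were present in every library, and EPCAM and KRT19 were at 0 in some. That list summed to 4901 to 6568 CPM in eIF4E Cap IP, 3047 to 4651 CPM in vector Cap IP, 2445 to 3982 CPM in eIF4E input and 1366 to 2241 CPM in vector input, without overlap between the cells in either. How these levels bear on the set was not tested.

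Which RNA a row counts is uncertain in this table. The library kit keeps the strand of the RNA, and the sources used here do not say which strand was counted. Rows opposite to well-known genes were often the higher ones. Among coding genes that have a row of the same name ending in AS1 and exons that overlap it by at least 100 bases, the AS1 row held more counts than the gene in 178 of 264 pairs (67.4%). Where the exons of such a pair do not overlap, it held more in 9 of 107 pairs (8.41%). Both counts are over pairs with at least 20 counts per library together, and they were made after the values were seen. MT-ND6, the mitochondrial mRNA encoded on the other strand than the rest, held 12961 counts per kb, against 684 to 6471 counts per kb for the other 12. Values below are therefore those of the rows with these names.

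Replication genes were counted at low to moderate levels, and ENOSF1 stood far above them. The other 9 genes together held 608 to 2509 counts in a library. Per kb of canonical transcript, ENOSF1 averaged 579 ± 81.5 CPM in eIF4E input and 490.3 ± 149 CPM in vector input (SD, n = 3 each, as for all means here). Next were TYMS, with 103 ± 11.6 CPM per kb in eIF4E input and 62.4 ± 26.2 in vector input, and MCM7, with 99.8 ± 25.2 CPM per kb in eIF4E input and 52.4 ± 14.7 in vector input. These neighbours did not differ beyond their spread. MCM3 had 39.2 ± 5.18 CPM per kb in eIF4E input and 31.6 ± 13.1 in vector input. MCM2 had 39.0 ± 3.76 CPM per kb in eIF4E input and 25.5 ± 12.2 in vector input, within the spread of MCM3. MCM5, PCNA, MCM4 and RRM2 followed, with mean levels of 14.6 to 23.2 CPM per kb in eIF4E input and 15.4 to 19.3 CPM per kb in vector input. MCM6, a subunit of the same ring, was the lowest of the set at 3.21 ± 1.35 CPM per kb in eIF4E input and 4.28 ± 0.993 in vector input.

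**Figure D1:**
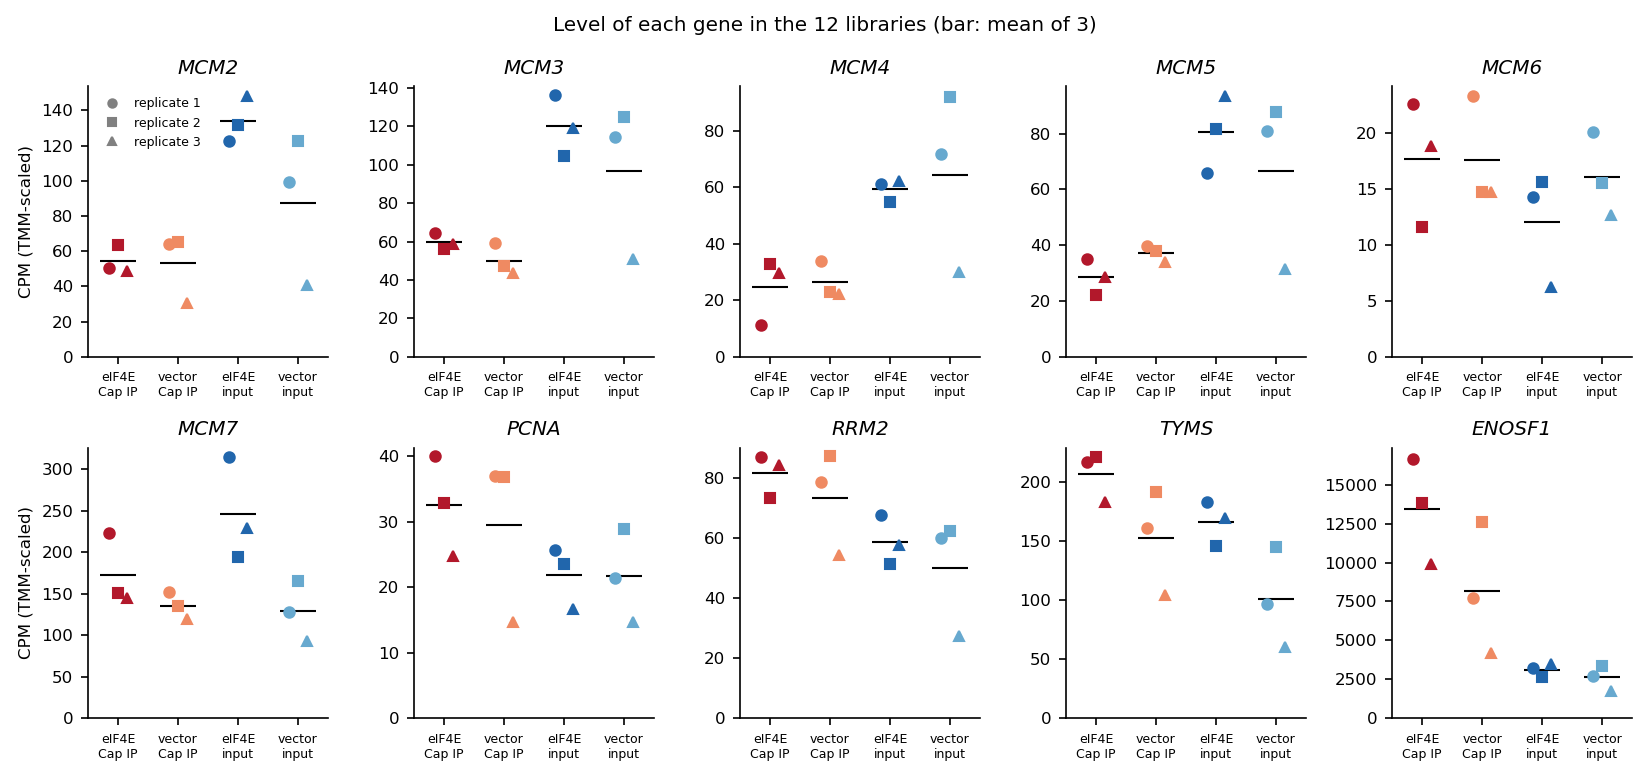
Each panel plots 1 gene of the set, with TMM-scaled CPM on a linear axis from 0 for the 3 libraries of each group and a bar at their mean. MCM2 to MCM5 are lower in Cap IP than in input, and ENOSF1 is higher in Cap IP. In all 10 panels vector input replicate 3 is the lowest vector input library, and vector Cap IP replicate 3 the lowest vector Cap IP library.

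Vector input replicate 3 was low in this set, and so was vector Cap IP replicate 3, whose title shares a stem with it. MCM2 to MCM7 summed to 716, 583 and 658 CPM in eIF4E input and to 515, 608 and 259 CPM in vector input. In Cap IP they summed to 406, 337 and 329 CPM in eIF4E cells and 372, 324 and 265 CPM in vector cells. The third vector input library therefore lay below the other 11 libraries in this sum, but only just below the third vector Cap IP library. That Cap IP library was the lowest vector Cap IP library for each gene of the set. The tests of the set that use vector input are given with and without vector input replicate 3 below.

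In input, before the pull-down, MCM7, TYMS and MCM2 were higher in each eIF4E library than in each vector library, and none of the 10 genes passed the test. MCM7, a subunit of the helicase ring, had 315, 195 and 229 CPM in eIF4E input and 129, 166 and 93.2 CPM in vector input. The groups do not overlap, although the highest vector library and the lowest eIF4E library are close. The log2 difference was 0.93 ± 0.29 (Benjamini-Hochberg adjusted p = 0.152 in edgeR's quasi-likelihood test), the largest of the set. The block on the title tag shared by an eIF4E and a vector library is described in the closing section.

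TYMS had 183, 146 and 169 CPM in eIF4E input and 96.3, 145 and 60.7 CPM in vector input. All 3 eIF4E libraries lay above all 3 vector libraries, by little for the nearest pair. Its log2 difference was 0.73 ± 0.31 (edgeR adjusted p = 0.302). MCM2 had 123, 131 and 148 CPM in eIF4E input and 99.6, 122 and 40.9 CPM in vector input, where the highest vector library all but reached the lowest eIF4E library. Its log2 difference was 0.62 ± 0.34 (edgeR adjusted p = 0.440).

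Of the 10 genes, 0 were called in input at an adjusted p under 0.05, against 0.53% of all tested genes (66 of 12460). At an unadjusted p under 0.05 stood 2 of the 10 genes, MCM7 and TYMS, against 1683 of all genes, and DESeq2 called none of the set. The 3 genes without overlap compare with 18.7% of all tested genes. The median log2 difference of the set was 0.26, against -0.049 for all genes. Without vector input replicate 3 the median of the set was -0.026, against -0.010 for all genes. MCM7 then stood at 0.74, TYMS at 0.46 and MCM2 at 0.27 on the log2 scale. The same omission turned MCM5, PCNA and RRM2 to negative values, of -0.069, -0.19 and -0.058. MCM3 and ENOSF1 came near 0, at 0.0051 and 0.025, and MCM4 stood at -0.46 and MCM6 at -0.54.

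The other members of the set overlapped between the cells in input. MCM3 had 136, 105 and 119 CPM in eIF4E input and 114, 125 and 51.0 CPM in vector input, a log2 difference of 0.32 ± 0.30. MCM5 had 66.0, 81.6 and 93.5 CPM in eIF4E input and 80.8, 87.7 and 31.6 CPM in vector input, a log2 difference of 0.27 ± 0.32. In both, vector input replicate 3 was the low library that made the gap between the means. MCM4 had 61.3, 54.7 and 62.3 CPM in eIF4E input and 71.8, 91.9 and 29.9 CPM in vector input, a log2 difference of -0.11 ± 0.37. MCM6 had 14.2, 15.6 and 6.23 CPM in eIF4E input and 20.0, 15.5 and 12.6 CPM in vector input, a log2 difference of -0.39 ± 0.39. MCM4 and MCM6 were thus the members with a negative value. PCNA had 25.7, 23.5 and 16.6 CPM in eIF4E input and 21.3, 28.9 and 14.8 CPM in vector input, a log2 difference of 0.030 ± 0.37. RRM2 had 67.6, 51.3 and 57.6 CPM in eIF4E input and 60.1, 62.5 and 27.4 CPM in vector input, a log2 difference of 0.24 ± 0.31. ENOSF1 had 3209.6, 2625 and 3479 CPM in eIF4E input and 2733, 3370.1 and 1785 CPM in vector input, a log2 difference of 0.24 ± 0.38. The edgeR adjusted p of these 7 genes was 0.663 to 0.980.

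**Figure D2:**
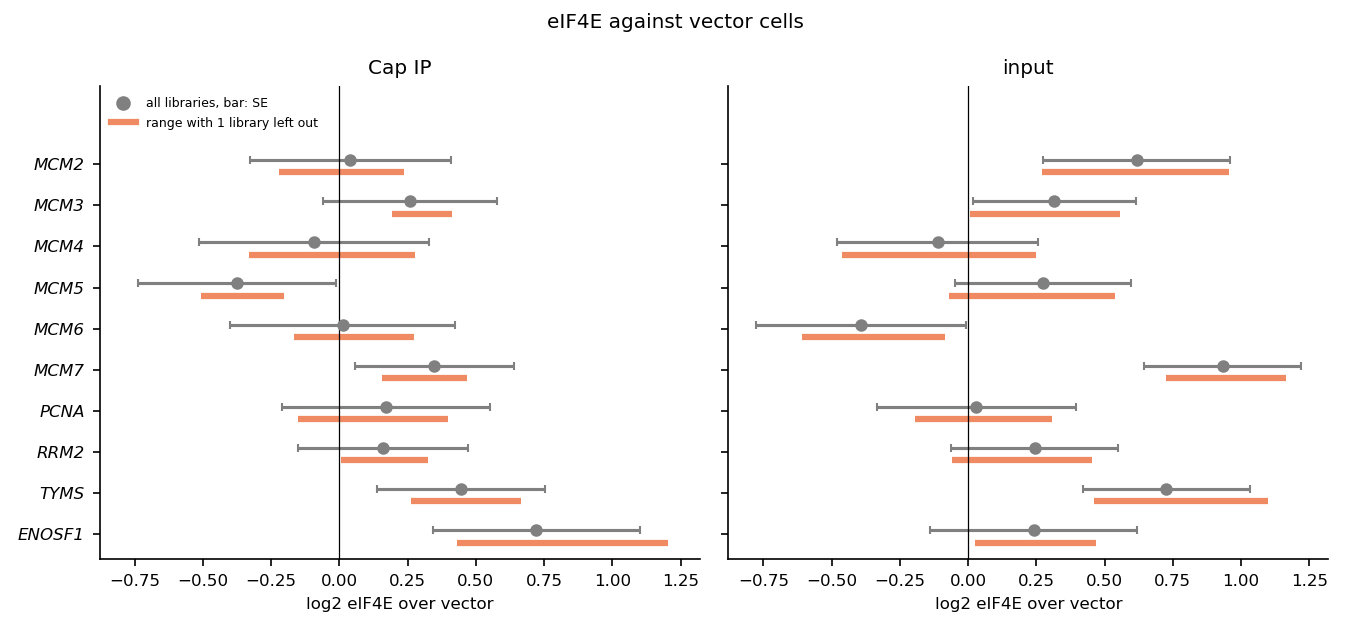
Log2 of eIF4E over vector for the 10 genes, in Cap IP on the left and input on the right. Points with bars are the fit of all 12 libraries with its SE, and the lower bars span the values with 1 library left out. None of the 10 was called in either panel, and MCM7 in input lies farthest from 0 at 0.93.

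Within a library, the members kept different proportions. MCM7 made up 37.4% ± 5.79 of the counts of MCM2 to MCM7 in eIF4E input, 29.4% ± 5.79 in vector input, 47.8% ± 6.05 in eIF4E Cap IP and 42.6% ± 2.38 in vector Cap IP. MCM4 made up 9.14% ± 0.501 in eIF4E input and 13.5% ± 1.82 in vector input, without overlap between those libraries. MCM3 made up 18.4% ± 0.593 in eIF4E input and 20.8% ± 1.29 in vector input, also without overlap. MCM6 made up 1.87% ± 0.875 in eIF4E input and 3.77% ± 1.17 in vector input, with overlap. The difference in these shares was not tested.

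Cap IP against input asks which RNAs are more or less abundant after the pull-down, relative to the other RNAs of the same library. In eIF4E cells, MCM2, MCM3, MCM4 and MCM5 fell to between 0.36 and 0.50 of their input level, and ENOSF1 rose 4.34-fold. In vector cells MCM3 and MCM4 fell and ENOSF1 rose. MCM6, MCM7, PCNA, RRM2 and TYMS passed in neither. All values are relative to a TMM scaling, which puts the median gene at -0.13 in eIF4E cells and -0.045 in vector cells. With total counts as library sizes the median gene stands at -0.99 in eIF4E cells and -0.78 in vector cells. The split of all calls is then 1101 higher and 5866 lower in eIF4E cells, against 2726 higher and 2899 lower under TMM. In vector cells it is 738 higher and 5013 lower, against 2308 higher and 2613 lower under TMM. Under total counts MCM2 to MCM5 remain lower and ENOSF1 remains higher in both cells, whereas MCM6, PCNA, RRM2 and TYMS in both, and MCM7 in vector cells, turn negative.

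MCM5, a helicase subunit, had 34.9, 22.2 and 28.8 CPM in eIF4E Cap IP and 66.0, 81.6 and 93.5 CPM in eIF4E input. The groups lie well apart. It fell, by 1.49 ± 0.35 in log2 units (edgeR adjusted p = 0.00189). Vector cells gave 39.9, 37.8 and 33.8 CPM in Cap IP and 80.8, 87.7 and 31.6 CPM in input, where the third input library lay below all Cap IP libraries. The log2 difference there was -0.84 ± 0.34 (edgeR adjusted p = 0.0549). With 1 library left out the adjusted p was 0.00607 to 0.235 (edgeR). The row was called in 8 of the alternatives listed in the closing sections.

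MCM2, another subunit of the ring, which also binds histones, had 50.3, 63.7 and 48.6 CPM in eIF4E Cap IP and 123, 131 and 148 CPM in eIF4E input. Each Cap IP library was lower than each input library. It fell, by 1.30 ± 0.36 in log2 units (edgeR adjusted p = 0.00596). Its vector libraries held 64.2, 65.2 and 30.6 CPM in Cap IP and 99.6, 122 and 40.9 CPM in input, which overlap through the third input library. The log2 difference there was -0.73 ± 0.36 (edgeR adjusted p = 0.112).

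MCM3 had 64.6, 56.0 and 58.5 CPM in eIF4E Cap IP and 136, 105 and 119 CPM in eIF4E input, without overlap. It fell, by 1.01 ± 0.31 in log2 units (edgeR adjusted p = 0.0120). In vector cells it had 59.3, 47.3 and 43.4 CPM in Cap IP and 114, 125 and 51.0 CPM in input. The third input library lay among the Cap IP libraries, and the row fell by 0.95 ± 0.31 (edgeR adjusted p = 0.0199). That call was lost when vector input replicate 1 or 2, or vector Cap IP replicate 2 or 3, was left out (edgeR adjusted p = 0.0768, 0.108, 0.0620 and 0.0641).

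MCM4 had 11.3, 32.8 and 29.7 CPM in eIF4E Cap IP and 61.3, 54.7 and 62.3 CPM in eIF4E input, and the first Cap IP library was the lowest at 11 counts. The groups do not overlap, and the row fell, by 1.26 ± 0.40 in log2 units (edgeR adjusted p = 0.0142). Without eIF4E Cap IP replicate 1 the adjusted p was 0.0831 (edgeR). Vector cells gave 34.0, 23.1 and 22.3 CPM in Cap IP and 71.8, 91.9 and 29.9 CPM in input, with overlap, and fell by 1.28 ± 0.39 (edgeR adjusted p = 0.0140). Without vector input replicate 2 or vector Cap IP replicate 2 the adjusted p was 0.0934 and 0.0549 (edgeR).

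The other subunits of the ring did not pass. MCM7 had 223, 151 and 145 CPM in eIF4E Cap IP and 315, 195 and 229 CPM in eIF4E input, a log2 difference of -0.51 ± 0.29 (edgeR adjusted p = 0.153). Under total counts the value was -1.40 (edgeR adjusted p = 6.01e-04), relative to the median gene at -0.99. In vector cells MCM7 had 152, 136 and 120.0 CPM in Cap IP and 129, 166 and 93.2 CPM in input, a log2 difference of 0.072 ± 0.29 under TMM and -0.68 under total counts. MCM7 overlapped in both cells. MCM6 had 22, 12 and 19 counts in eIF4E Cap IP and 36, 32 and 12 counts in eIF4E input, a log2 difference of 0.54 ± 0.40 under TMM and -0.34 under total counts. Its vector libraries held 24, 14 and 23 counts in Cap IP and 31, 29 and 30 counts in input, a log2 difference of 0.13 ± 0.40 under TMM and -0.61 under total counts. At so few counts the depth limits what can be seen of MCM6.

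The clamp and the nucleotide enzymes had positive values under TMM in both cells, and none passed. RRM2 had 87.2, 73.4 and 84.3 CPM in eIF4E Cap IP and 67.6, 51.3 and 57.6 CPM in eIF4E input, without overlap. Its log2 difference was 0.47 ± 0.31 under TMM (edgeR adjusted p = 0.222) and -0.39 under total counts. In vector cells RRM2 had 78.8, 87.2 and 54.3 CPM in Cap IP and 60.1, 62.5 and 27.4 CPM in input, with overlap, and differed by 0.55 ± 0.31 under TMM (edgeR adjusted p = 0.165) and -0.21 under total counts. PCNA had 40.0, 32.8 and 24.8 CPM in eIF4E Cap IP and 25.7, 23.5 and 16.6 CPM in eIF4E input, and differed by 0.56 ± 0.37 under TMM (edgeR adjusted p = 0.226) and -0.33 under total counts. In vector cells PCNA had 36.9, 36.8 and 14.7 CPM in Cap IP and 21.3, 28.9 and 14.8 CPM in input, a difference of 0.42 ± 0.38 under TMM and -0.36 under total counts. The groups of PCNA overlap in both cells.

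TYMS had 217, 221 and 183 CPM in eIF4E Cap IP and 183, 146 and 169 CPM in eIF4E input, where the lowest Cap IP and the highest input library all but met. Its log2 difference was 0.32 ± 0.30 under TMM (edgeR adjusted p = 0.413) and -0.55 under total counts. In vector cells TYMS had 161, 191 and 105 CPM in Cap IP and 96.3, 145 and 60.7 CPM in input, with overlap. The log2 difference there was 0.60 ± 0.31 under TMM (edgeR adjusted p = 0.131) and -0.18 under total counts. With 1 library left out it was 0.33 to 0.96 under TMM (edgeR adjusted p = 0.0314 to 0.458). It was called in 2 of the alternatives listed in the closing sections.

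ENOSF1 had 16643, 13829.9 and 9906 CPM in eIF4E Cap IP and 3209.6, 2625 and 3479 CPM in eIF4E input. Every Cap IP library was far above every input library, and the row rose, by 2.12 ± 0.39 in log2 units (edgeR adjusted p = 2.55e-04). In vector cells it had 7698, 12628 and 4161 CPM in Cap IP and 2733, 3370.1 and 1785 CPM in input, also without overlap, although the third Cap IP library was close to the highest input. It rose there by 1.63 ± 0.39 (edgeR adjusted p = 0.00254). Under total counts the values were 1.25 in eIF4E cells and 0.82 in vector cells (edgeR adjusted p = 0.00191 and 0.0295).

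In eIF4E cells 5 of the 10 genes were called, 4 lower and 1 higher, against 45.1% of all tested genes. In vector cells 3 of the 10 were called, 2 lower and 1 higher, against 39.5% of all tested genes. The shares of the set lie near those backgrounds. Groups did not overlap for 7 of the 10 genes in eIF4E cells and 1 in vector cells, against 54.8% and 49.9% of all genes. The median log2 difference of the set was -0.098 in eIF4E cells and 0.10 in vector cells, which hides the opposite signs of MCM2 to MCM5 and ENOSF1.

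An input and a Cap IP library whose titles share a stem deviated together from their group means in vector cells in all 3 pairs. With that stem as a replicate block, 7 of the 10 genes were called in vector cells, the 3 above and 4 more (edgeR). Of all 12460 genes tested, 6084 were called with that block. MCM2 then stood at -0.66 (edgeR adjusted p = 0.0243) and MCM5 at -0.71 (edgeR adjusted p = 0.0283). RRM2 stood at 0.61 (edgeR adjusted p = 0.0350) and TYMS at 0.64 (edgeR adjusted p = 0.0224), under TMM. Without vector input replicate 3 and with no block, 5 genes were called, MCM2 and MCM5 beside the 3 (edgeR adjusted p = 0.0162 and 0.00607). Over all genes, 4059 of 12991 were called without that library. That fit broke a stem pair, since it kept vector Cap IP replicate 3, the lowest vector Cap IP library for each gene of the set. The median of the set was 0.10 with all libraries, -0.073 without vector input replicate 3 and 0.20 without vector Cap IP replicate 3. Without vector input replicate 3, MCM2 stood at -1.08, MCM5 at -1.19, MCM3 at -1.27, MCM4 at -1.64 and ENOSF1 at 1.42. MCM6 and MCM7 turned negative, at -0.024 and -0.12, and PCNA at 0.19, RRM2 at 0.25 and TYMS at 0.33 stayed positive under TMM. Without vector Cap IP replicate 2 the count was 1, ENOSF1, against 4044 of 13428 genes tested.

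Taken by shared stem under TMM in vector cells, the log2 of Cap IP over input of MCM5 was -1.02, -1.21 and 0.098 in replicates 1 to 3. That of MCM4 was -1.08, -1.99 and -0.42, and that of RRM2 0.39, 0.48 and 0.99. MCM4 was negative and RRM2 positive in all 3 pairs, and MCM5 was negative in all but the third. The stem pairs of eIF4E cells did not all deviate together and are not given pair by pair.

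**Figure D3:**
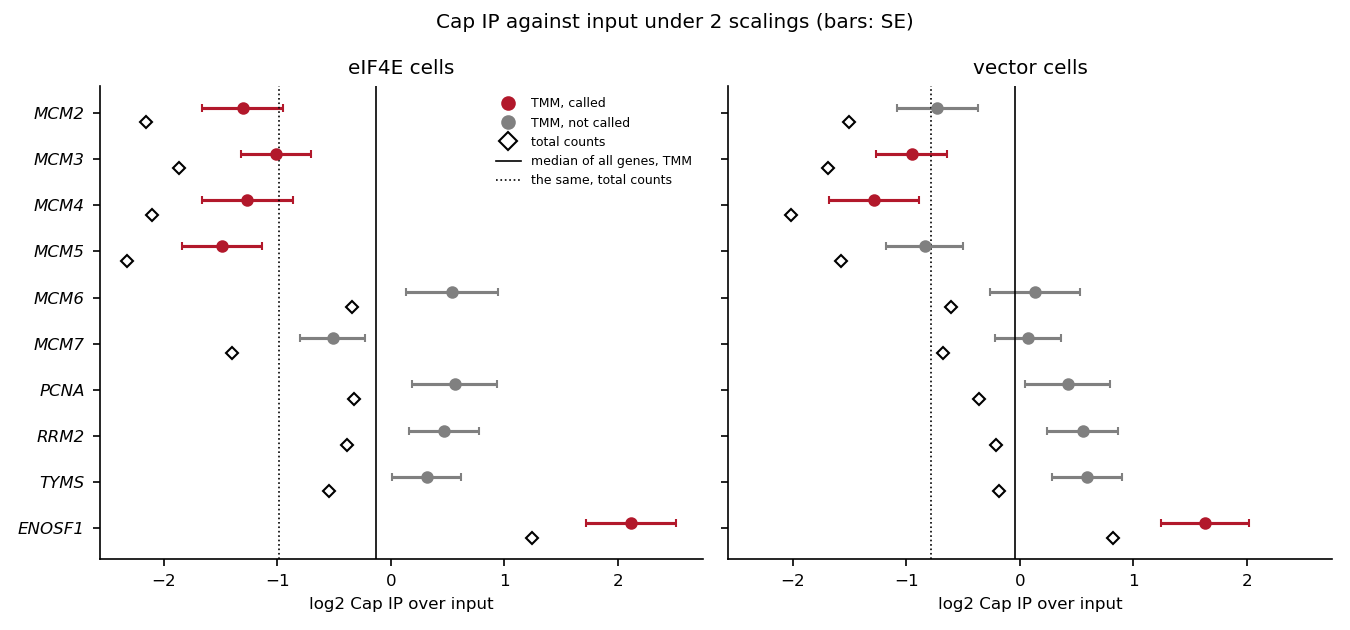
Log2 of Cap IP over input for the 10 genes, with eIF4E cells on the left and vector cells on the right. Circles with bars are TMM values with their SE, in red where called, diamonds are values with total counts as library sizes, and vertical lines mark the median of all genes under each scaling. Under either scaling, MCM2 to MCM5 lie left of the median of that scaling and ENOSF1 lies right of 0, while MCM6, PCNA, RRM2 and TYMS change sign.

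A ratio within a library does not depend on the scaling. The counts of MCM2 to MCM5 over those of PCNA, RRM2 and TYMS averaged 0.523 ± 0.0496 in eIF4E Cap IP, against 1.61 ± 0.183 in eIF4E input. They averaged 0.671 ± 0.106 in vector Cap IP, against 1.79 ± 0.286 in vector input. All 6 Cap IP libraries lay at 0.750 or below, and all 6 input libraries lay above 1, with vector input replicate 3 at 1.49. This ratio was formed after the values of its genes were seen, so it is a description with no test.

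Cap IP over input also went with transcript length in this table. Among all coding genes with a known length, the median log2 value was 0.25 in eIF4E cells and 0.66 in vector cells for canonical transcripts under 1 kb. It was -0.82 in eIF4E cells and -0.85 in vector cells for those of 5 kb and over. MCM2, MCM3 and MCM5, at 3434, 3068 and 3458 bases, share the bin from 3 to 4 kb, whose median was -0.49 in eIF4E cells and -0.29 in vector cells. MCM6 with 3753 bases and RRM2 with 3258 bases are in the same bin and had positive values under TMM. PCNA with 1276 bases and TYMS with 1613 bases are shorter, and MCM7 with 2467 bases lies between. ENOSF1, at 5362 bases, belongs to the longest bin and had the highest value of the set. These lengths are those of the named genes, and the RNA that a row counts may be another, as said above. The part of length in the members' values was not tested.

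**Figure D4:**
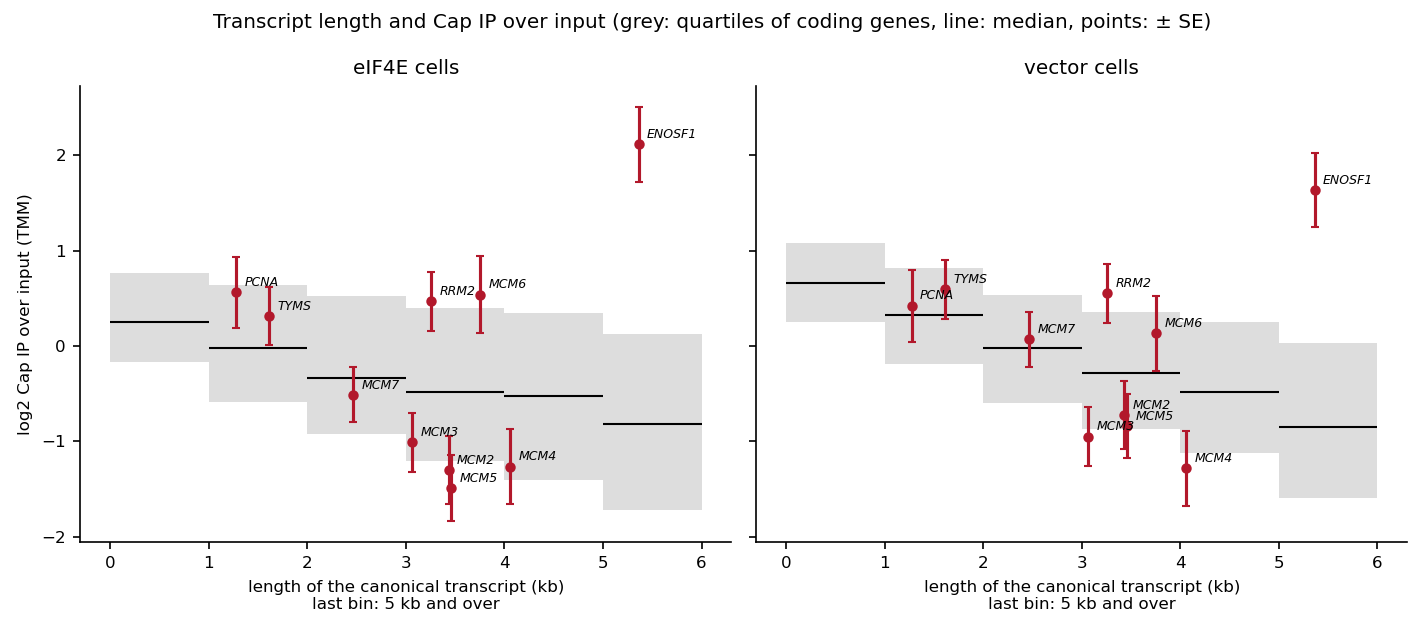
Log2 of Cap IP over input under TMM against the length of the canonical transcript of the named gene, with eIF4E cells on the left and vector cells on the right. Grey boxes span the quartiles of coding genes in each bin of 1 kb, lines are their medians, and points are the 10 genes with their SE. MCM2 to MCM5 lie below the median of their bins, MCM6 and RRM2 above it, and ENOSF1 far above the quartiles of genes of 5 kb and over.

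Whether Cap IP over input differs between the cells was tested as the difference of the log2 values, eIF4E cells minus vector cells. None of the 10 genes was called, and none of all 12460 genes was (0% called) by edgeR or by DESeq2, with 728 genes and 0 of the set at an unadjusted p under 0.05 in edgeR. MCM5 stood at -0.65 ± 0.48, MCM7 at -0.58 ± 0.41 and MCM2 at -0.58 ± 0.50. ENOSF1 stood at 0.48 ± 0.54 and MCM6 at 0.41 ± 0.56. TYMS at -0.28 ± 0.43, PCNA at 0.14 ± 0.53, RRM2 at -0.084 ± 0.44, MCM3 at -0.056 ± 0.44 and MCM4 at 0.018 ± 0.56 were nearer to 0. The SEs of these differences were 0.41 to 0.56. Without vector input replicate 3 the median of the 10 differences was 0.24, against -0.070 with it, and again none was called. MCM5 then stood at -0.31, MCM7 at -0.39, MCM2 at -0.23 and TYMS at -0.015. ENOSF1 stood at 0.70, MCM6 at 0.56, MCM4 at 0.37, PCNA at 0.36, MCM3 at 0.25 and RRM2 at 0.22, so that MCM3 and RRM2 were then positive. Without vector Cap IP replicate 3, the other library of that stem, the median was -0.24, and none was called. That more of the set was called in eIF4E cells than in vector cells is thus not a shown difference.

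eIF4E against vector cells within Cap IP compares the pulled-down RNA of both cells. None of the 10 genes was called, against 0.225% of all genes (28 of 12460), and DESeq2 called 75 genes and none of the set. At an unadjusted p under 0.05 stood 1146 of all genes and 0 of the 10 (edgeR). All 10 genes overlapped between the cells, and all genes did so in all but 13.6% of cases. ENOSF1 had 16643, 13829.9 and 9906 CPM in eIF4E Cap IP and 7698, 12628 and 4161 CPM in vector Cap IP, a log2 difference of 0.72 ± 0.38 (edgeR adjusted p = 0.594). The second vector library lay between the eIF4E libraries. TYMS had 217, 221 and 183 CPM in eIF4E Cap IP and 161, 191 and 105 CPM in vector Cap IP, a log2 difference of 0.45 ± 0.31 (edgeR adjusted p = 0.718). MCM5 stood at -0.37 ± 0.36, MCM7 at 0.35 ± 0.29 and MCM3 at 0.26 ± 0.32. The remaining 5 genes lay between -0.094 and 0.17, where MCM6 turned from 0.013 to -0.026 with total counts. The median of the set was 0.17, against -0.012 for all genes. Without vector Cap IP replicate 3 the median was -0.037, against 0.033 for all genes, and none of the set was called. ENOSF1 then stood at 0.43 and TYMS at 0.26, and MCM2, PCNA and MCM6 turned negative, at -0.22, -0.15 and -0.082. With the title tag as a replicate block, whose pairs deviated together in Cap IP, 155 genes and still none of the set were called (edgeR).

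Rows on the other strand were followed beside the members they overlap. TYMS exons share 967 bases with ENOSF1 exons, which is 39.9% of the exon bases of TYMS and 8.49% of those of ENOSF1. They share 193 bases (7.97% of TYMS) with TYMSOS, a noncoding RNA gene that begins at the other end of TYMS. MCM7 shares 392 bases (7.90%) at its start with AP4M1, which encodes a subunit of an adaptor complex for vesicles. MCM2 and ENOSF1 also overlap noncoding genes whose identifiers have no row of that name. MCM3, MCM4, MCM5, MCM6, PCNA and RRM2 have no exon opposite to another gene in the annotation used.

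ENOSF1 exceeded TYMS in each of the 12 libraries, and more so in Cap IP. The ratio of ENOSF1 to TYMS counts was 76.9, 62.5 and 54.0 in eIF4E Cap IP and 17.5, 18.0 and 20.6 in eIF4E input. It was 47.7, 66.0 and 39.7 in vector Cap IP and 28.4, 23.3 and 29.4 in vector input. Cap IP and input do not overlap in either cell. In input the ratio was lower in each eIF4E library than in each vector library, with means of 18.7 ± 1.63 in eIF4E cells and 27.0 ± 3.29 in vector cells. In Cap IP the cells overlapped.

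In Cap IP against input, TYMSOS at the other end of TYMS rose as ENOSF1 did. It had 3866, 4920 and 3708 counts in eIF4E Cap IP and 2118, 1557 and 1721 counts in eIF4E input, and rose, by 2.31 ± 0.34 in log2 units (edgeR adjusted p = 2.51e-05). Vector cells gave 2078, 3462 and 2749 counts in Cap IP and 853, 1413 and 973 counts in input, and rose by 2.11 ± 0.33 (edgeR adjusted p = 8.43e-05). Without vector input replicate 3 the vector value was 1.91. It remained higher under total counts, by 1.46 in eIF4E cells and 1.32 in vector cells. ENOSF1 over TYMSOS averaged 3.27 ± 0.811 in eIF4E Cap IP and 3.73 ± 0.241 in eIF4E input. In vector cells it averaged 3.22 ± 0.752 in Cap IP and 4.59 ± 0.322 in input. Between Cap IP and input, these rows on the minus strand thus moved with each other more than with TYMS. The log2 values of TYMS were 0.32 in eIF4E cells and 0.60 in vector cells under TMM, and negative under total counts. Between eIF4E and vector input, TYMSOS at 0.54 was nearer to TYMS at 0.73 than to ENOSF1 at 0.24. Whether the rows on the minus strand count RNA of their own strand or that of TYMS was not tested.

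AP4M1 had 429, 215 and 215 counts in eIF4E Cap IP and 478, 220 and 305 counts in eIF4E input, a log2 difference of 0.92 ± 0.31 under TMM (edgeR adjusted p = 0.0214) and 0.035 under total counts. The call was also lost with no filter (edgeR adjusted p = 0.0826), with only the groups compared (0.0576), without eIF4E Cap IP replicate 1 (0.236, at a log2 difference of 0.47) and without eIF4E input replicate 2 (0.111). Its vector libraries held 277, 226 and 294 counts in Cap IP and 230, 261 and 290 counts in input, a log2 difference of 0.76 ± 0.31 under TMM (edgeR adjusted p = 0.0593) and -0.0048 under total counts. Without vector input replicate 3 the vector value was 0.68. With 1 library left out the adjusted p in vector cells was 0.0338 to 0.162 (edgeR), and 5 of the alternatives called the row there. AP4M1 over MCM7 averaged 1.61 ± 0.322 in eIF4E Cap IP and 0.615 ± 0.0706 in eIF4E input. It averaged 1.70 ± 0.116 in vector Cap IP and 1.10 ± 0.239 in vector input. The Cap IP libraries lay above the input libraries in both cells.

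**Figure D5:**
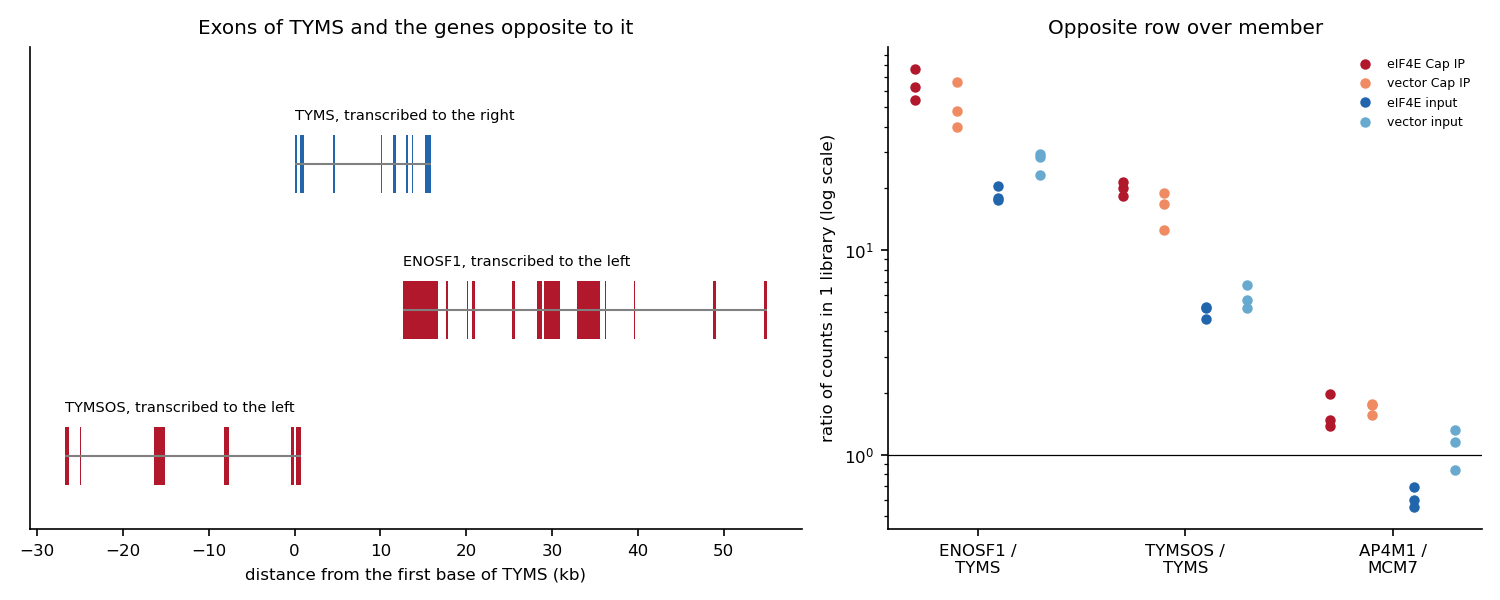
Left, exons of TYMS, ENOSF1 and TYMSOS by distance from the first base of TYMS in kb, in blue where transcribed to the right and in red where transcribed to the left. Right, the ratio of counts of the opposite row over its member in each library, on a log axis. ENOSF1 over TYMS is 54.0 to 76.9 in eIF4E Cap IP and 17.5 to 20.6 in eIF4E input, and the Cap IP ratios lie above the input ratios for all 3 pairs of rows in both cells.

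The rest of the replication machinery was read from 7 lists, chosen by function. In input, 1 of their tested genes was called between eIF4E and vector cells. It was CDK6, a kinase that opens the way into S phase, which rose, by 1.35 ± 0.30 in log2 units (edgeR adjusted p = 0.0412). Over all genes 0.53% were called there. No gene of its list was called with total counts, with the filter of 50 counts in 3 libraries or with only the groups compared. The same held when any 1 of the 3 eIF4E input libraries, vector input replicate 2 or 3, eIF4E Cap IP replicate 2 or 3, or vector Cap IP replicate 2 was left out. In the list of origin recognition and loading genes, which load MCM2 to MCM7, 0 of 10 tested genes were called in input. ORC4 there stood at -0.88 ± 0.37 (edgeR adjusted p = 0.297). No gene of these lists was called in Cap IP between the cells, nor in the difference of Cap IP over input.

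In Cap IP against input, 45.1% of all tested genes were called in eIF4E cells and 39.5% in vector cells, and the counts below are to be read against these shares. The partners of the helicase, with 7 of 13 called in eIF4E cells and 6 of 13 in vector cells, lay above them by little, and the other 6 lists lay below them in both cells. Of the 10 loading genes, 1 rose and 1 fell in eIF4E cells, and 1 rose and 0 fell in vector cells. ORC4, a subunit of the origin recognition complex, rose by 2.45 ± 0.36 in eIF4E cells and 1.53 ± 0.35 in vector cells (edgeR adjusted p = 3.09e-05 and 0.00182). Of 13 tested partners of the helicase and firing factors, 2 rose and 5 fell in eIF4E cells, and 2 rose and 4 fell in vector cells. GINS3 and DBF4, a GINS subunit and the activator of the CDC7 kinase, rose, and TICRR, TIMELESS, GINS4 and GINS1 fell, each in both cells. TIMELESS, which travels with the fork, stood at -2.60 ± 0.37 in eIF4E cells and -1.72 ± 0.34 in vector cells.

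Of 9 tested polymerase and primase genes, 0 rose and 2 fell in eIF4E cells, and 1 rose and 2 fell in vector cells. POLE, the catalytic subunit of the leading strand polymerase, stood at -3.03 ± 0.39 in eIF4E cells and -2.68 ± 0.38 in vector cells, and POLD1 at -1.66 ± 0.30 in eIF4E cells and -1.37 ± 0.30 in vector cells. Of 12 clamp loading and lagging strand genes, 2 rose and 3 fell in eIF4E cells, and 1 rose and 2 fell in vector cells. RPA3, the small subunit of the single-strand binding complex, rose in both cells and RPA1, its large subunit, fell in both. Of 11 genes of deoxynucleotide supply, the list that RRM2 and TYMS belong to by role, 2 rose and 1 fell in eIF4E cells, and 2 rose and 2 fell in vector cells. DUT, which makes the substrate of TYMS, rose by 0.92 ± 0.32 in eIF4E cells and 0.95 ± 0.31 in vector cells. SHMT1 fell in both cells.

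Of 16 E2F and cyclin genes, 3 rose and 0 fell in eIF4E cells, and 2 rose and 0 fell in vector cells. CCNA2, the S phase cyclin, rose by 3.16 ± 0.42 in eIF4E cells and 1.98 ± 0.40 in vector cells. Of 16 G2/M genes, 1 rose and 1 fell in eIF4E cells, and 0 rose and 2 fell in vector cells. MKI67, a marker of dividing cells with a very long mRNA, fell in both. The calls of both these lists fell short of the 45.1% and 39.5% of all genes. The median log2 value of the helicase partners was -0.21 in eIF4E cells and -0.66 in vector cells, and that of the polymerases -0.64 in eIF4E cells and -0.24 in vector cells. That of all genes was -0.13 in eIF4E cells and -0.045 in vector cells. Under total counts the medians of all genes were the -0.99 and -0.78 given above, and the directions here are those under TMM.

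The genes whose profile over the 12 libraries was nearest to a member's were taken from those with a mean log2 CPM of at least 4, by the root mean square difference of centred log2 CPM. Nearest to TYMS were CNBP at 0.21, NUDC at 0.21 and HN1 at 0.22. Among members, RRM2 ranked 7 of 5573 for TYMS at 0.26, PCNA ranked 79 and MCM7 ranked 183, while ENOSF1 ranked 2417 at 0.74. MCM6 ranked 1866, MCM3 2475, MCM2 2584, MCM5 3512 and MCM4 4184. MCM2 to MCM5 thus lay farther from TYMS than ENOSF1 did. Nearest to ENOSF1 were MXD3 at 0.26, EIF2AK1 at 0.26 and MLX at 0.29. These 12 libraries share the gap between Cap IP and input, and such nearness is a description of it.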

How the data were processed

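RNA sequencing of input and Cap IP RNA from U2OS cells was deposited by the authors as raw read counts per gene name, in 1 table with 12 columns. Per the submitters' processing notes, STAR 2.5.1b, featureCounts 1.4.5-p1 and DESeq2 were used with GRCh38.p5. Per the labels, KAPA RNA HyperPrep with RiboErase libraries were read for 75 cycles, single-end. The sources used here give neither the annotation nor the strand setting, and the reads were not analysed.

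The analysis used edgeR 4.0.16 and limma 3.58.1 under R 4.3.3. Genes were filtered with filterByExpr, scaled with TMM and fitted by edgeR's quasi-likelihood method over 12 libraries and 4 groups. The 5 comparisons are eIF4E against vector in input and in Cap IP, Cap IP against input in each cell, and the difference of the last. Adjusted p-values are Benjamini-Hochberg over all 12460 genes tested, and a gene is called under 0.05. SEs are the log2 fold change over the square root of F. CPM are scaled by TMM, and a prior count of 2 entered correlations and profiles. DESeq2 1.42.0 served as an alternative, and the fit was tested on simulated data. Gene positions came from GENCODE release 44 and promoters from RefSeq, where MCM4 and MCM5 had no entry. Figures and sequence searches used Python 3.11.15, pandas 2.3.3 and matplotlib 3.10.9.

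The members and lists were chosen with earlier results of these data known. All 10 members and the rows opposite to them are named. From each list, called genes up to 6 per comparison, by smallest p, could be named, and the 3 genes nearest in profile. Some results that this rule would name are not reported here. Alternatives were other scalings and filters, only the groups compared, replicate blocks and leaving out each library. Replicate numbers follow accession order and were not used to pair, although libraries of the same number also share a tag. Titles share a stem between an input and a Cap IP library, and a tag between an eIF4E and a vector library. Residuals of stem pairs correlated at 0.43, 0.27 and 0.44 in vector cells, and at 0.35, 0.08 and 0.11 in eIF4E cells. Those of tag pairs correlated at 0.20, 0.16 and 0.30 in Cap IP, and at 0.18, 0.01 and -0.04 in input. Pairs were taken as such where all 3 were over 0.1. No replicates were copies (chi-square per degree of freedom 5.37 to 19.7).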

Additional observations from a re-analysis of the deposited data

How the results depend on the processing

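The count of called genes of the set stayed at 0 of 10 in eIF4E against vector input, in the same in Cap IP and in the difference of Cap IP over input under all alternatives, except that the title tag as a replicate block in input gave 1, MCM7 (edgeR adjusted p = 0.0400); those pairs did not deviate together. In vector Cap IP against input the count of 3 was 5 with total counts as library sizes, 7 with the stem as a replicate block, and 1 to 5 with a library left out. In eIF4E cells the count of 5 was 6 with total counts, with MCM7 added, and 4 to 5 with a library left out. Over all genes, the 4921 of 12460 called in vector cells became 5751 with total counts and 6084 with the stem block. With a library left out they were 4044 to 5405. The 5625 of eIF4E cells became 6967 with total counts and 4560 to 5946 with a library left out. In eIF4E against vector, the counts over all genes moved more than those of the set. In eIF4E against vector input 66 became 151 with DESeq2, 11 with total counts, 318 with no filter, 32 with a filter of 50 counts in 3 libraries, 18 with only the groups compared, 462 with the tag block and 7 to 109 with a library left out. In Cap IP 28 became 75, 23, 204, 18, 6, 155 and 0 to 50. The difference gave 51 genes with the stem block. PCNA and MCM6 were not tested under the filter of 50 counts.

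Signs turned for values that did not pass. Under total counts these were, in vector Cap IP against input, MCM6 (-0.61), MCM7 (-0.68), PCNA (-0.36), RRM2 (-0.21), TYMS (-0.18) and AP4M1 (-0.0048), and in eIF4E cells MCM6 (-0.34), PCNA (-0.33), RRM2 (-0.39) and TYMS (-0.55). With no filter MCM7 in vector cells stood at -0.0015. The difference of MCM4 was -0.081 with total counts, -0.064 with no filter, -0.16 with the stem block and -0.064 with the tag block. MCM6 in Cap IP was -0.026 with total counts and -0.0011 with no filter. The cause of these changes was not tested. Total counts also shift the median gene, as given above.

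With a library left out, ranges that crossed 0 were, in eIF4E against vector input, MCM4 -0.46 to 0.25, MCM5 -0.069 to 0.54, PCNA -0.19 to 0.31, RRM2 -0.058 to 0.45 and AP4M1 -0.029 to 0.35. In vector Cap IP against input they were MCM6 -0.10 to 0.32 and MCM7 -0.12 to 0.30. In the difference they were MCM3 -0.30 to 0.25, MCM4 -0.34 to 0.37, PCNA -0.22 to 0.36, RRM2 -0.29 to 0.22, AP4M1 -0.29 to 0.34 and TYMSOS -0.056 to 0.58. In eIF4E against vector Cap IP they were MCM2 -0.22 to 0.24, MCM4 -0.33 to 0.28, MCM6 -0.17 to 0.28, PCNA -0.15 to 0.40 and AP4M1 -0.10 to 0.51. Depth limits MCM6, which had 53 counts over the eIF4E Cap IP libraries, and also MCM4, MCM5 and PCNA in Cap IP, with 75, 86 and 98 counts there.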
